A study of Mus musculus with 12 samples.

Results

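Wild-type mouse hearts were compared between postnatal day 1 (P1) and postnatal day 21 (P21), an interval in which the newborn heart becomes a working heart close to weaning. RNA sequencing libraries of 3 heart samples at each age were used, which are 6 of the 12 samples of the study, and the other 6 come from Csrp3 KO hearts at the same ages. The labels give the tissue as heart and the genotype as wt, and they give no strain, sex, litter or heart chamber. Whether the 3 samples of an age are 3 animals is not stated, so the spread behind each p-value may be technical in part. Genes entered the comparison when their FPKM (sequenced fragments per kilobase of gene length after the authors' scaling to depth) reached 1 in at least 3 of the 6 libraries. This left 12399 of the 56748 genes in the table, of which 10962 are protein-coding. A total of 1151 genes met the minimum in exactly 3 libraries, and 986 genes with exactly 2 such libraries fell just short of it.

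At birth the mouse heart still grows by division of its muscle cells, which soon leave the cell cycle and grow further by enlargement. Over the same weeks the muscle cells exchange several fetal sarcomere isoforms for mature ones, build up mitochondria and sarcoplasmic reticulum, and change their supply of fuel and their excitability. Vessels, matrix, immune cells and blood change around them, and a whole-heart library measures all of these cells together.

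Depth was 15.1 to 15.9 M (megareads) in genes at P1 and 9.67 to 15.1 M at P21, and 22129 to 22353 genes at P1 against 15811 to 19730 at P21 had a value above 0. The P21 libraries were the less alike, with Pearson correlations of 0.910 to 0.928 between them across genes against 0.965 to 0.986 at P1. P21 libraries 1 and 2, whose names end in an R that the labels do not explain, were the shallowest and lay farthest from the P1 libraries along the first principal component, which held 73.3% of the variance. The values followed gene length. Protein-coding genes of up to 1000 bases had a median log2 change of 1.43, and those of over 5000 bases had one of -0.29. The shortest class lay 1.46, 2.17 and 0.67 above the P1 mean in P21 libraries 1, 2 and 3, so P21 library 3 was the least affected. Xist stood at 33.0 FPKM in P1 library 1, at no more than 0.132 FPKM in P1 libraries 2 and 3, which held Y-linked RNA, and at 5.54 to 21.3 FPKM in all P21 libraries, so sex and age were partly confounded. The label heart fits the markers: 10 heart muscle cell markers summed to 9492 to 34097 FPKM, whereas no marker of skeletal muscle, thymus or lung exceeded 5.96 FPKM.

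**Figure D1:**
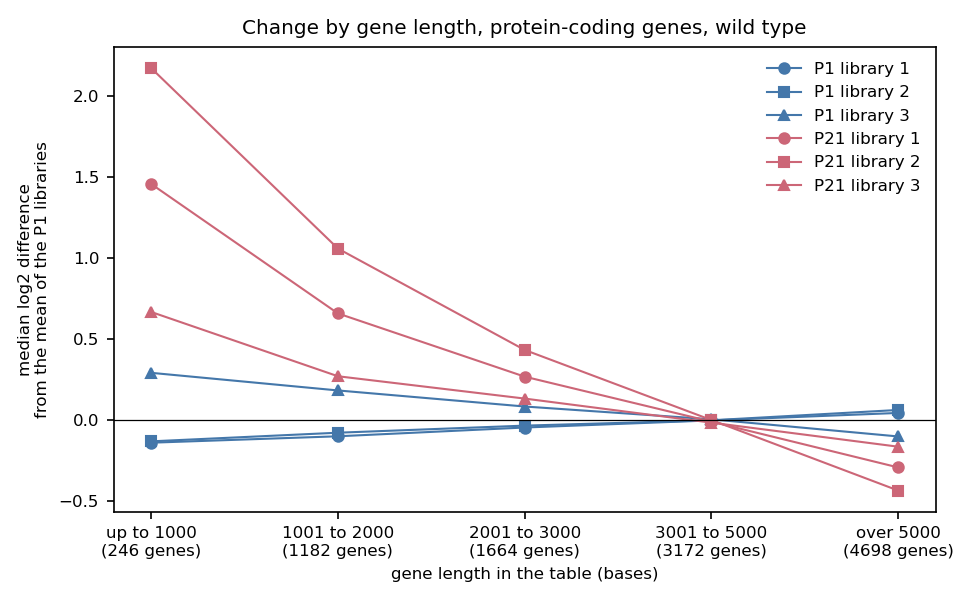
Median difference of each wild-type library from the mean of the P1 libraries (vertical axis, log2 of FPKM + 0.5) for protein-coding genes in 5 classes of gene length (horizontal axis, bases, with the number of genes). The P21 libraries stand at 1.46, 2.17 and 0.67 in the shortest class and below 0 in the class over 5000 bases, and library 2 has the steepest line.

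Much of the expressed genome differed between the ages. With limma on log2(FPKM + 0.5) and Benjamini-Hochberg adjustment, 2015 of 12399 genes (16.3%) were higher at P21 and 2159 (17.4%) were lower at an adjusted p under 0.05. Changes of at least 1 on the log2 scale made up 1614 of the rises and 1567 of the falls, and changes of at least 3 made up 121 and 104. The 3 libraries of each age did not overlap for 3131 higher genes (25.3%) and 3452 lower genes (27.8%). For the counts of rises and falls in lists on the deposited scale, the background is the shares past the threshold, 16.3% and 17.4%. The balance of rises and falls depends on the scale: rescaling to TPM (a scale on which every library has the same sum) shifted the median of all genes to -1.11 and turned the split into 601 higher and 7280 lower, and rescaling without mitochondrial and the 20 most abundant genes shifted it to -0.90, with 642 higher and 5518 lower. Directions are therefore given on the deposited scale, where the median of all genes was -0.03, and list medians are given relative to the median of all genes. For list counts after rescaling to TPM, the background is 601 higher and 7280 lower of 12399 genes. No list median changed its sign relative to the median of all genes under that rescaling. Age was also fitted without P21 libraries 1 and 2. Wild-type P21 is then library 3 alone, a single sample assumed to vary like the other groups, and the spread comes from the P1 and KO libraries, so that its counts are set beside those of the fit over all 12 libraries (2794 higher and 2957 lower), which takes its spread from all groups too. The fit with P21 library 3 alone gave 1369 higher and 1566 lower. With sex as a covariate, where age rests on P1 library 1 against the P21 libraries, 192 were higher and 338 lower. Of the 36 lists with rises 21 then had 0 rises, and of the 32 lists with falls 12 had 0 falls.

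The genes with the largest changes were ranked by size. On the rising side the 15 leading genes were Rpl3l, Ly6a, Ckmt2, Ly6c1, Cbr2, Cox7a1, Tuba8, Slc38a3, Clec2d, Art1, Rgcc, Ces1d, Meig1, Lynx1 and Tmem52. The leading falls, of which 14 are described, included Tnni1, H19, Cks2, Mest, Bex4, Ptn, Cited1, Dlk1, Ccnb2, Plagl1, Lpar3, Aldh1b1, Lmnb1 and Pbk. These 29 were chosen for their size, so their changes are a description.

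**Figure D2:**
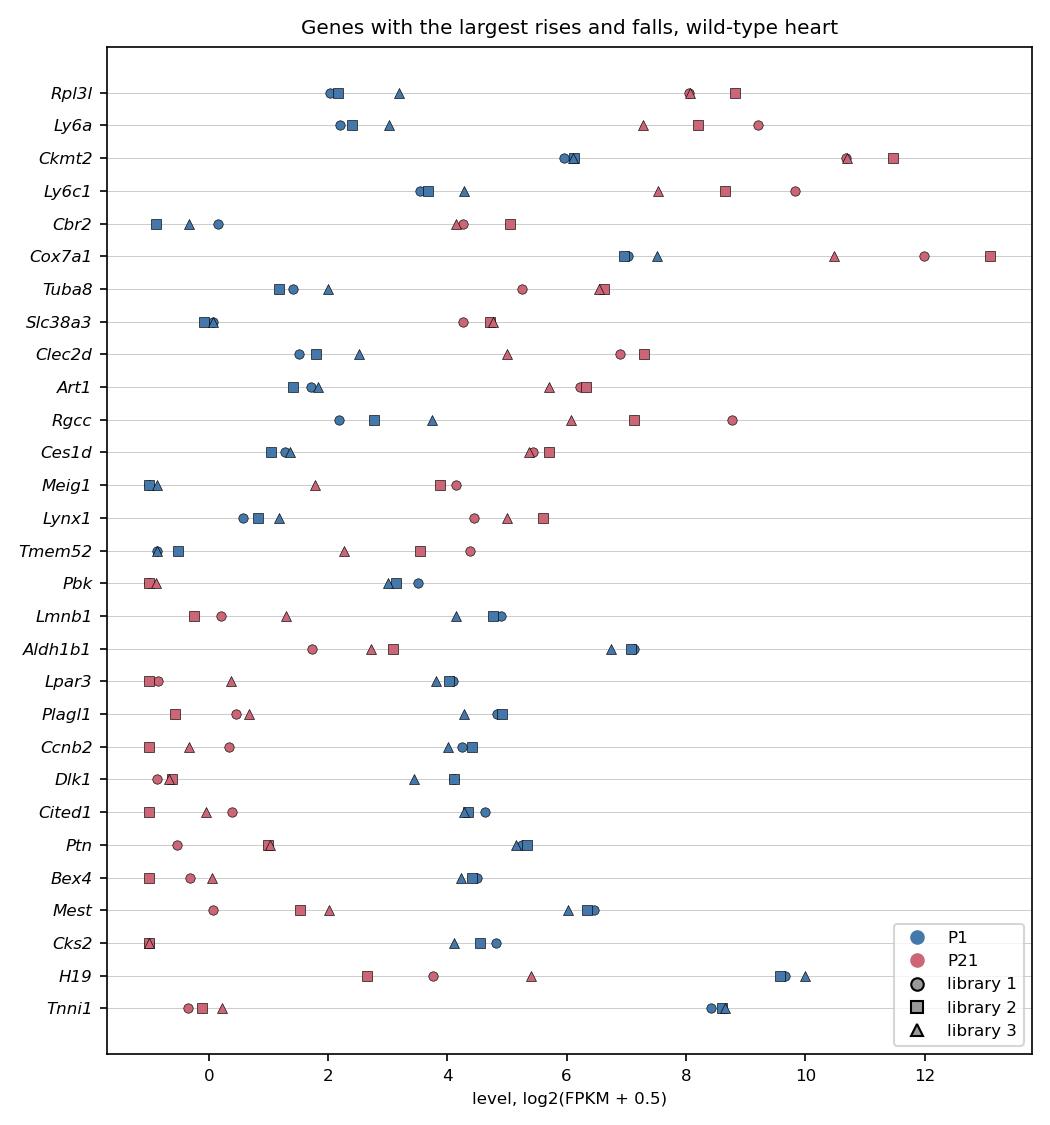
Level of the 15 genes with the largest rises (upper rows) and 14 with the largest falls (lower rows) in each wild-type library (horizontal axis, log2 of FPKM + 0.5; colours for age, symbols for the library). The P1 and P21 libraries do not overlap for any of the 29 genes, which was part of how they were chosen, and Tnni1 has the widest gap with a change of -8.64.

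RNA for the slow skeletal inhibitory troponin fell, while RNA for the cardiac form, already the higher in FPKM in every P1 library, rose. Tnni1, the slow skeletal troponin I that the fetal heart uses, was measured at 342, 389 and 405 FPKM at P1 and 0.287, 0.428 and 0.666 FPKM at P21. The ages lay far apart, and the change was the largest fitted for any gene named here (-8.64 ± 0.22 (SE), limma adjusted p = 8.18e-06). Tnni3, the cardiac troponin I that replaces it, was measured at 811, 817 and 912 FPKM at P1 and 6125, 7412 and 3204 FPKM at P21. All P21 libraries lay above all P1 libraries, and the rise was 6.22-fold (2.64 ± 0.498 (SE), limma adjusted p = 0.00901). Tnni1 overlaps no other gene in the table, whereas the Tnni3 row overlaps Dnaaf3 on the same strand.

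The myosin heavy chains did not change as sharply. Myh7, the slow beta-myosin heavy chain of the fetal mouse ventricle, was measured at 283, 346 and 99.3 FPKM at P1 and 95.9, 53.7 and 73.1 FPKM at P21. The groups did not overlap, but P1 library 3 lay close to the P21 values, and the fall of 2.94-fold missed the threshold (-1.56 ± 0.51 (SE), limma adjusted p = 0.0524). Myh6, the fast alpha-myosin heavy chain, was measured at 2547, 2086 and 1072 FPKM at P1 and 1972, 1265 and 3065 FPKM at P21. The groups overlapped, and the change of 0.14 (limma adjusted p = 0.862) turned to -1.003 after rescaling to TPM. Both myosin rows overlap non-coding genes on the other strand, Mhrt among them for Myh7, and the counting is not stated to use strand.

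Of 34 sarcomere genes tested, 12 rose and 4 fell, with a median 0.74 above that of all genes. After rescaling to TPM 8 rose and 12 fell, where 601 and 7280 of all 12399 genes did. The list median was then 0.66 above that of all genes. Tcap, which caps titin at the Z disc, was measured at 156, 151 and 215 FPKM at P1 and 1952, 1859 and 1289 FPKM at P21. It rose 9.72-fold, and its lowest P21 value was far above its highest P1 value (3.28 ± 0.38 (SE), limma adjusted p = 0.00182). Myoz2, a calcineurin-binding Z-disc protein, rose from 75.5, 80.9 and 129 FPKM to 751, 1070.0 and 370.1 FPKM (2.85 ± 0.48 (SE), limma adjusted p = 0.00615). Xirp2, an actin-binding protein of the Z disc and intercalated disc, was low at P1 and rose to 14.7, 44.6 and 22.7 FPKM, a 17.01-fold change (4.09 ± 0.38 (SE), limma adjusted p = 9.72e-04). Myl3, the ventricular essential light chain, rose 4.42-fold (2.14 ± 0.57 (SE), limma adjusted p = 0.0258). Acta1, the skeletal alpha-actin, was measured at 27.1, 17.7 and 15.8 FPKM at P1 and 43.3, 612 and 209.8 FPKM at P21, and its P21 libraries spread more widely than those of the other sarcomere genes (3.14 ± 0.86 (SE), limma adjusted p = 0.0292). Myoz1, a relative of Myoz2, stood at 4.22, 4.502 and 4.31 FPKM at P1 and was listed at 0 in all P21 libraries, which makes it at least 73.9-fold lower against a floor of 3 reads over the group. The sarcomere list held 17 rises and 5 falls in the fit over all 12 libraries and 10 and 4 in the fit with P21 library 3 alone.

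**Figure D3:**
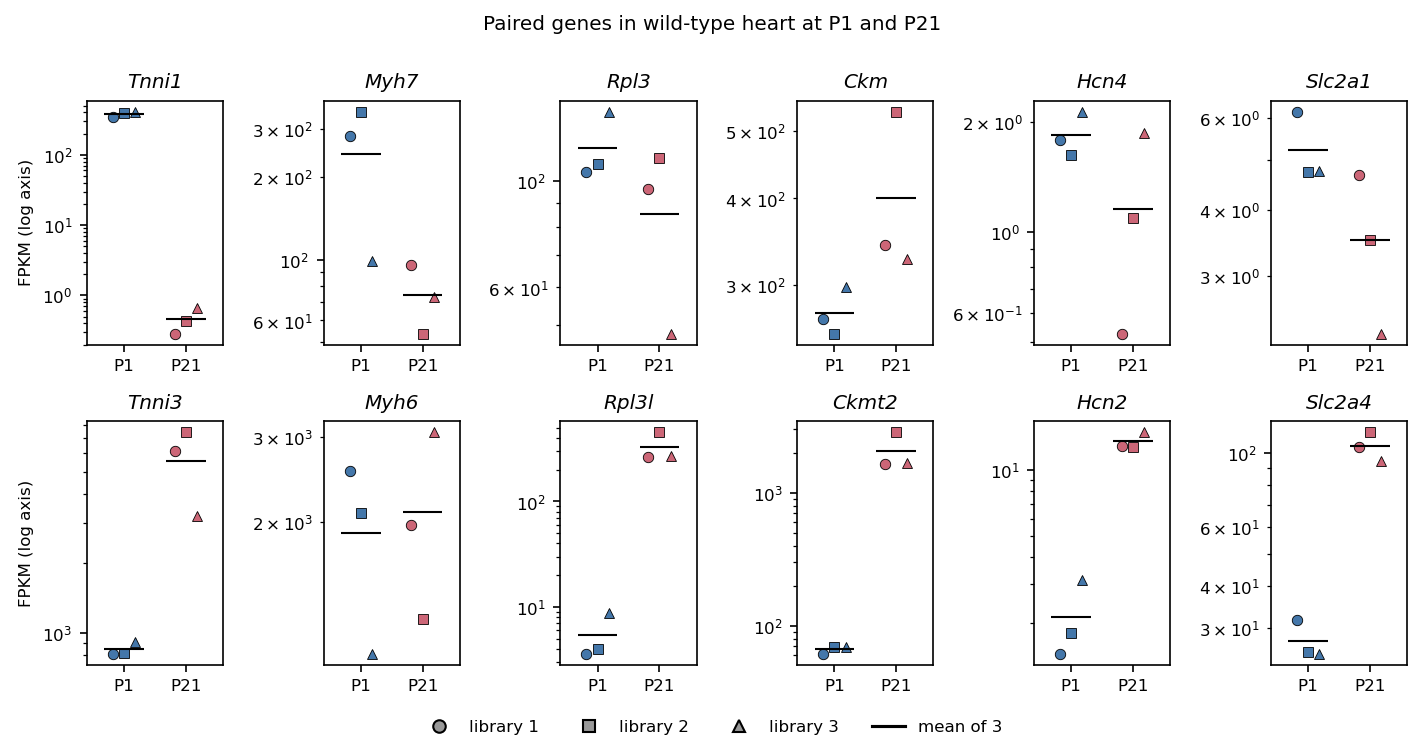
FPKM (vertical axes, log scale, a range of its own for each gene) of 12 genes in the 3 wild-type libraries of each age, as 6 pairs of related genes (upper and lower panel), with the mean as a bar. Tnni1 and Tnni3, Rpl3 and Rpl3l and Hcn4 and Hcn2 show a rise in the lower panel, Tnni3, Rpl3l and Hcn2 being higher in every P21 library, while Myh6 has overlapping ages and a change that turns negative after rescaling to TPM.

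Cell division genes fell nearly without exception. Of 39 genes of mitosis and cytokinesis tested, 38 fell and 0 rose, with a median -2.72 relative to all genes. The member that did not pass the test was Cenpa, named here after its values were seen. In the fit over all 12 libraries 38 fell, and with P21 library 3 alone 34 fell. Of 39 DNA replication genes, 25 fell and 0 rose, with a median of -1.48 relative to all genes. Among 16 D cyclins, their kinases and cell cycle inhibitors, 7 fell and 0 rose. With sex as a covariate the falls in these lists numbered 33, 13 and 0.

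Cdk1, the kinase that drives entry into mitosis, was measured at 12.5, 10.4 and 7.57 FPKM at P1 and 0.0785, 0.139 and 0.243 FPKM at P21. Every P21 library was far below every P1 library (-4.01 ± 0.25 (SE), limma adjusted p = 3.77e-04). Mki67, the proliferation antigen Ki-67, went from 13.2, 13.3 and 7.54 FPKM to 0.0385, 0.153 and 0.313 FPKM (-4.12 ± 0.30 (SE), limma adjusted p = 4.64e-04). Among the mitotic cyclins, Ccnb1 fell 15.5-fold (-3.95 ± 0.32 (SE), limma adjusted p = 6.53e-04). Ccnb2 fell 23.6-fold, from 18.4, 20.9 and 15.7 FPKM to 0.759, 0 and 0.294 FPKM (-4.56 ± 0.34 (SE), limma adjusted p = 5.35e-04). Cks2, the small subunit that binds cyclin-dependent kinases, was at 27.6, 22.8 and 16.7 FPKM at P1 and at 0 in all P21 libraries, which makes it at least 139-fold lower against a floor of 3 reads over the group. Pbk, a mitotic kinase, fell 18.1-fold (-4.18 ± 0.23 (SE), limma adjusted p = 2.64e-04). Cdc20, the activator of the anaphase-promoting complex, was added after its values were seen and went from 24.6, 19.5 and 10.5 FPKM to 3.25, 1.83 and 1.56 FPKM (-2.75 ± 0.36 (SE), limma adjusted p = 0.00271). P1 library 3 had the lowest P1 value for each of these genes.

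The stretches of promoter that follow are shown because their genes fell together. They run from 30 bases before the outermost match to the annotated start, 5′ to 3′ on the gene's strand, from RefSeq on GRCm38.p6, and capitals mark TTTGAA (the CHR element) and CCAAT boxes on either strand. The motifs and the genes printed were chosen after the values and matches were seen. Cdk1 is at chr10:69352913-69353150 on the minus strand, Ccnb2 at chr9:70421555-70421751 on the minus strand, Cdc20 at chr4:118437344-118437426 on the minus strand and Cks2 at chr13:51645137-51645231 on the plus strand.
Cdk1: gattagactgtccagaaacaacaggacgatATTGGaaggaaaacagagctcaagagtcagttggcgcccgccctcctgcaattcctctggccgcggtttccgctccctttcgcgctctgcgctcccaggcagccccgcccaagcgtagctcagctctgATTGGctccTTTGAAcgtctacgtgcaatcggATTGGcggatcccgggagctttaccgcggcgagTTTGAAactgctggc
Ccnb2: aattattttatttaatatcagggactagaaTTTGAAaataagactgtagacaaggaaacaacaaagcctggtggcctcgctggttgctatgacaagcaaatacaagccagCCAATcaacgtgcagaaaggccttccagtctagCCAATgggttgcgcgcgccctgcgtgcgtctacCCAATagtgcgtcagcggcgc
Cdc20: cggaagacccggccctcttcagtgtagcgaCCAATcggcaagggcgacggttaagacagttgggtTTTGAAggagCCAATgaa
Cks2: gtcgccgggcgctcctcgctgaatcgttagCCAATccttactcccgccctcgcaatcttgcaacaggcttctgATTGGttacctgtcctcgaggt
The windows of Cdk1, Ccnb2 and Cdc20 hold both TTTGAA and CCAAT boxes, and that of Cks2 holds CCAAT boxes alone. In Ccnb2 the TTTGAA lies 167 to 162 bases before the start, far from its nearest CCAAT box at 87 to 83 bases. In Cdc20 the TTTGAA lies 18 to 13 bases before the start, and in Cdk1 the nearer of its matches lies 15 to 10 bases before the start. Over the 250 bases before the start, TTTGAA was found in 10 of 32 mitosis genes with a promoter in the table (31.2%) against 12.5% of 8993 tested genes, and CCAAT in 24 of 32 (75.0%) against 40.4%. Both motifs together were in 28.1% of the mitosis genes and in 5.76% of tested genes. Each motif was also frequent in a list that rose. TTTGAA was in 4 of 14 interferon-stimulated genes (28.6%), and CCAAT was in 8 of 10 antigen presentation genes (80%). In 41 nuclear oxidative phosphorylation genes, which rose too, the motifs were in 2.44% and 34.15%. The E2F motif TTTCCCGC or TTTGGCGC was in 5 of 31 replication genes (16.1%) and in 2.99% of tested genes. No match overlapped another in the printed mitotic windows, and a match is a description of the letters and not a binding site.

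Replication genes and G1 regulators fell as well. E2f1, the transcription factor of the G1 to S transition, was measured at 7.65, 7.27 and 4.70 FPKM at P1 and 0.205, 0.217 and 0.546 FPKM at P21, with no overlap between the ages (-3.09 ± 0.28 (SE), limma adjusted p = 8.88e-04). Mcm5 and Mcm6, subunits of the replicative helicase, fell by 3.10 and 2.92 on the log2 scale, with limma adjusted p-values of 8.84e-04 and 6.64e-04. Ccne1, cyclin E1, fell 6.68-fold (-2.74 ± 0.30 (SE), limma adjusted p = 0.00161). Ccnd2, a D cyclin, kept 2.003, 3.94 and 6.05 FPKM at P21 after 15.9, 17.6 and 12.7 FPKM at P1 (-1.92 ± 0.35 (SE), limma adjusted p = 0.00834). Cdk4, the partner kinase of the D cyclins, fell 1.83-fold, in a row that overlaps Tspan31 on the other strand (-0.87 ± 0.21 (SE), limma adjusted p = 0.0201). Cdkn2c, an inhibitor of Cdk4 and Cdk6, also fell, from 13.97, 13.1 and 9.59 FPKM to 5.72, 3.18 and 3.74 FPKM (-1.45 ± 0.26 (SE), limma adjusted p = 0.00769). Lmnb1, the B-type nuclear lamin, fell 18.1-fold (-4.18 ± 0.41 (SE), limma adjusted p = 0.00110). Whether fewer dividing cells or less RNA in each cell carried these falls cannot be told apart in bulk libraries, and the same holds for every marker described further on.

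Imprinted genes that act in growth fell as a group. Imprinted genes are expressed from the copy of a single parent, and several of them are known to promote or restrain growth before birth. Of 20 tested, 16 fell and 1 rose, with a median -2.06 relative to all genes. H19, the long non-coding RNA that neighbours Igf2, was measured at 808, 761 and 1016 FPKM at P1 and 13.1, 5.80 and 41.9 FPKM at P21. The fall was 55.7-fold, and P21 library 3 kept the highest P21 level (-5.80 ± 0.65 (SE), limma adjusted p = 0.00161). Igf2, the fetal insulin-like growth factor, went from 11.1, 10.4 and 8.88 FPKM to 0, 0 and 0.537 FPKM, in a row that overlaps Igf2os on the other strand (-4.05 ± 0.33 (SE), limma adjusted p = 6.64e-04). Mest, a hydrolase-like protein of the endoplasmic reticulum, fell 33.5-fold (-5.06 ± 0.47 (SE), limma adjusted p = 9.27e-04). Dlk1, a non-canonical Notch ligand, fell from 16.7, 16.8 and 10.3 FPKM to 0.0456, 0.151 and 0.132 FPKM (-4.60 ± 0.26 (SE), limma adjusted p = 2.64e-04). Plagl1, a zinc finger transcription factor, fell 22.4-fold (-4.49 ± 0.36 (SE), limma adjusted p = 6.53e-04). Grb10, an adaptor that inhibits insulin receptor signalling, kept a measurable level, with 76.6, 79.1 and 52.2 FPKM at P1 and 14.7, 9.86 and 11.6 FPKM at P21 (-2.47 ± 0.26 (SE), limma adjusted p = 0.00134). The only member that rose was Dcn, which encodes the matrix proteoglycan decorin and stood at 44.98, 45.8 and 66.00 FPKM at P1 and 173, 142 and 130.2 FPKM at P21 (1.51 ± 0.28 (SE), limma adjusted p = 0.00892).

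Oncofetal RNA-binding and Hmga genes passed the minimum in 5 of 12 cases, and 4 of these 5 fell. Igf2bp3, an RNA-binding protein of fetal tissues, was measured at 2.20, 2.003 and 1.43 FPKM at P1 and 0, 0 and 0.156 FPKM at P21 (-2.11 ± 0.26 (SE), limma adjusted p = 0.00208). Its relative Igf2bp2 stayed detectable, at 0.977, 0.716 and 1.40 FPKM after 5.11, 5.73 and 4.72 FPKM (-1.91 ± 0.24 (SE), limma adjusted p = 0.00224). Hmga1, a chromatin architectural protein, fell 5.93-fold, with P21 library 1 well below the other P21 libraries (-2.57 ± 0.56 (SE), limma adjusted p = 0.0145). Myc, a growth-promoting transcription factor, was measured at 7.16, 8.91 and 7.51 FPKM at P1 and 0.998, 0.692 and 1.54 FPKM at P21, with every P21 library well below every P1 library (-2.44 ± 0.25 (SE), limma adjusted p = 0.00130).

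Genes of the respiratory chain rose broadly. Of 54 nuclear genes of oxidative phosphorylation, 45 rose and 0 fell, with a median 2.20 above that of all genes. Many of them are short genes, and short genes stood high in P21 libraries 1 and 2. With the length trend removed 44 rose, with a median of 1.75. With P21 library 3 alone there were 33 rises and a median of 1.28, where the fit over all 12 libraries had 49 rises. After rescaling to TPM 35 rose and 3 fell. With sex as a covariate the list held 0 rises, beside 192 over all genes.

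The muscle isoforms of cytochrome oxidase led the list. Cox7a1, the heart and skeletal muscle isoform of a small subunit, was measured at 129.9, 125 and 182 FPKM at P1 and 4059, 8756 and 1429 FPKM at P21. P21 library 2 was the highest and library 3 the lowest, with every P21 value far above P1 (4.69 ± 0.67 (SE), limma adjusted p = 0.00347). Cox8b and Cox6a2, muscle isoforms of other subunits, rose 16.7-fold and 10.2-fold, with limma adjusted p-values of 0.00850 and 0.00751. These genes are 360 to 680 bases long in the table, the class in which all lengths together had a median change of 1.43. Ndufs7, a longer subunit of complex I, was measured at 110.3, 122 and 131 FPKM at P1 and 613, 1115 and 406 FPKM at P21 (2.43 ± 0.44 (SE), limma adjusted p = 0.00759). The P21 libraries held the same order there, with library 2 highest and library 3 lowest.

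Of 13 genes encoded by the mitochondrial genome, 4 rose and 0 fell. mt-Co2, a core subunit of cytochrome oxidase, was measured at 1407, 1695 and 2151 FPKM at P1 and 9989, 12408 and 9311 FPKM at P21 (2.60 ± 0.49 (SE), limma adjusted p = 0.00892). Mitochondrially encoded RNA took 9.502% to 13.7% of reads at P1 and 12.6% to 21.8% at P21, and these ranges overlap. The mitochondrial ribosome had 19 rises and 0 falls among 30 genes, and 7 rises against 3 falls after rescaling to TPM. It had 23 rises in the fit over all 12 libraries, 7 with P21 library 3 alone and 0 with sex as a covariate. Its named members include Mrps25, of the small subunit, at 2.998, 3.22 and 4.35 FPKM at P1 and 13.5, 24.97 and 9.89 FPKM at P21 (1.96 ± 0.34 (SE), limma adjusted p = 0.00697). The Mrps25 row overlaps Nr2c2 on the other strand.

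Of 8 genes of creatine and phosphate transfer, 1 rose (12.5% against 16.3% of all genes) and 0 fell on the deposited scale. After rescaling to TPM 1 rose and 5 fell, and in the fit over all 12 libraries 2 rose. Ckmt2, the creatine kinase of muscle mitochondria, was measured at 61.5, 69.1 and 68.7 FPKM at P1 and 1642, 2849 and 1668 FPKM at P21. The P1 libraries lay close together, all P21 libraries were far above them, and the rise was 29.7-fold (4.89 ± 0.37 (SE), limma adjusted p = 5.35e-04). The cytosolic kinases did not pass the test on the deposited scale. Ckm, the muscle isoform, changed by 0.52 with no overlap between the ages (limma adjusted p = 0.282), and the sign turned to -0.63 after rescaling to TPM. Ckb, the brain isoform, had overlapping ages and a change of 0.27 (limma adjusted p = 0.523), which turned to -0.87 after the same rescaling.

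Fatty acid genes held rises and falls at shares near those of all genes. Of 36 genes of fatty acid uptake and oxidation, 7 rose (19.4% against 16.3% of all genes) and 8 fell (22.2% against 17.4%). After rescaling to TPM 2 rose and 19 fell, with the list median 0.12 above that of all genes. The falling members described here are known targets of the fatty acid receptor PPARα. Pdk4, a kinase that shuts off pyruvate dehydrogenase, went from 119.8, 140.2 and 100.2 FPKM to 33.9, 8.77 and 17.3 FPKM (-2.74 ± 0.46 (SE), limma adjusted p = 0.00625). Angptl4, an inhibitor of lipoprotein lipase, fell 7.66-fold (-2.94 ± 0.51 (SE), limma adjusted p = 0.00704). Cpt1a, the liver isoform of the enzyme that admits fatty acids to mitochondria, was measured at 19.8, 22.8 and 13.9 FPKM at P1 and 4.83, 2.37 and 4.37 FPKM at P21 (-2.17 ± 0.30 (SE), limma adjusted p = 0.00325). Its muscle counterpart Cpt1b was listed at no more than 2.27 FPKM in any wild-type library, with overlapping ages and a change of -0.74 (limma adjusted p = 0.220). These values rest on 3 to 142 reads a library. Whether the row captures all reads of the gene was not tested, so its level is uncertain. Ucp3, a mitochondrial carrier induced by fatty acids, fell 3.53-fold (-1.82 ± 0.31 (SE), limma adjusted p = 0.00659). On the rising side Dgat2, an enzyme of triglyceride synthesis, was measured at 40.7, 43.9 and 38.5 FPKM at P1 and 151, 172 and 97.5 FPKM at P21 (1.72 ± 0.29 (SE), limma adjusted p = 0.00648).

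Genes of ketone and amino acid breakdown rose. Oxct1, the enzyme that lets muscle burn ketone bodies, was measured at 35.7, 28.3 and 26.6 FPKM at P1 and 160.4, 264 and 205 FPKM at P21. All P21 values were far above the P1 values, and the rise was 6.77-fold (2.76 ± 0.29 (SE), limma adjusted p = 0.00135). It belongs to a list of 29 genes of the TCA cycle and branched-chain amino acid catabolism in which 13 rose and 0 fell. After rescaling to TPM 2 rose and 6 fell, with the list median 0.65 above that of all genes. Bckdhb, a subunit of the branched-chain keto acid dehydrogenase, rose 4.44-fold (2.15 ± 0.30 (SE), limma adjusted p = 0.00309). Got1, the cytosolic transaminase of the malate-aspartate shuttle, rose 2.77-fold (1.47 ± 0.33 (SE), limma adjusted p = 0.0150).

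Muscle forms of several glucose genes rose. Slc2a4, the insulin-responsive glucose carrier GLUT4, was measured at 31.7, 25.4 and 25.2 FPKM at P1 and 104, 115 and 94.8 FPKM at P21. The ages were far apart and the rise was 3.78-fold (1.92 ± 0.23 (SE), limma adjusted p = 0.00205). Slc2a1, the constitutive carrier GLUT1, stood at 6.16, 4.74 and 4.77 FPKM at P1 and 4.68, 3.51 and 2.33 FPKM at P21, with no overlap but a change of -0.55 that missed the threshold (limma adjusted p = 0.143). Of 30 genes of glycolysis and glycogen, 12 rose and 1 fell on the deposited scale, and 0 rose and 0 fell with sex as a covariate. After rescaling to TPM 2 rose and 13 fell, with the list median 0.76 above that of all genes. Aldoa, the muscle aldolase, rose 4.97-fold from 388, 377 and 361 FPKM (2.31 ± 0.44 (SE), limma adjusted p = 0.00923), and Aldoc, the brain aldolase, fell from 3.06, 3.04 and 2.06 FPKM to 0.593, 0 and 0 FPKM (-2.29 ± 0.36 (SE), limma adjusted p = 0.00518). Pgam2 and Pfkm, the muscle forms of phosphoglycerate mutase and phosphofructokinase, rose 3.35-fold and 2.32-fold, with limma adjusted p-values of 0.0237 and 0.0259. The symbols Aldoa and Gapdh share sequence with pseudogenes, and Gapdh was low in every library, so their levels are uncertain.

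Cholesterol synthesis genes were lower at P21. Of 17 cholesterol synthesis genes, 8 fell and 0 rose, with a median -1.04 relative to all genes, and 1 fell with sex as a covariate. Idi1, the isopentenyl diphosphate isomerase, fell 5.46-fold, with P21 library 3 well above the other P21 libraries (-2.45 ± 0.44 (SE), limma adjusted p = 0.00752). Of 21 genes of serine, one-carbon and nucleotide synthesis, 5 fell (23.8% against 17.4% of all genes) and 0 rose, with a median -0.17 relative to all genes. Psat1, the serine synthesis transaminase, went from 5.48, 4.17 and 3.64 FPKM to 0.941, 0.925 and 0.757 FPKM (-1.83 ± 0.23 (SE), limma adjusted p = 0.00227).

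Among ion channels and pumps there were rises and falls. Of 25 tested, 8 rose and 7 fell, and after rescaling to TPM 4 rose and 11 fell. The list median after rescaling was 0.32 above that of all genes. Hcn2, a pacemaker channel, was measured at 1.44, 1.80 and 3.13 FPKM at P1 and 12.97, 12.8 and 14.96 FPKM at P21 (2.48 ± 0.26 (SE), limma adjusted p = 0.00142). Its relative Hcn4, the main pacemaker channel of the sinoatrial node, had overlapping ages and a change of -0.57 (limma adjusted p = 0.211), which became 0.016 without P21 libraries 1 and 2. Kcna5, a potassium channel of the ultrarapid repolarizing current, rose 4.68-fold (2.23 ± 0.29 (SE), limma adjusted p = 0.00271). Kcnk3, the background potassium channel TASK-1, rose from 29.8, 31.2 and 30.4 FPKM to 103, 114 and 81.3 FPKM (1.67 ± 0.24 (SE), limma adjusted p = 0.00329). Kcnq1, the pore subunit of the slow repolarizing current, fell 2.19-fold (-1.13 ± 0.21 (SE), limma adjusted p = 0.00889). Kcnv2, a silent potassium channel subunit, was measured at 0.0317, 0.0340 and 0.0328 FPKM at P1 and 2.48, 1.84 and 2.29 FPKM at P21 (2.33 ± 0.22 (SE), limma adjusted p = 9.72e-04).

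Calcium handling showed 3 rises and 3 falls among 23 genes, with the median of the list at that of all genes. S100a1, a calcium sensor that acts on the release channel and the calcium pump, was measured at 137, 142 and 185 FPKM at P1 and 1764, 2473 and 878 FPKM at P21 (3.35 ± 0.47 (SE), limma adjusted p = 0.00334). Hrc, the histidine-rich calcium-binding protein of the sarcoplasmic reticulum, was measured at 80.2, 81.6 and 79.95 FPKM at P1 and 338, 501 and 384 FPKM at P21, with the P1 libraries close together (2.31 ± 0.30 (SE), limma adjusted p = 0.00260). Slc8a1, the sodium-calcium exchanger of the surface membrane, fell 3.53-fold (-1.82 ± 0.30 (SE), limma adjusted p = 0.00573). Cacna1h, a T-type calcium channel of the fetal heart, went from 3.44, 3.22 and 1.5 FPKM to 0.251, 0.175 and 1.04 FPKM, with P21 library 3 highest (-1.74 ± 0.41 (SE), limma adjusted p = 0.0187). At the membrane and its junctions, 4 of 28 genes rose (14.3% against 16.3% of all genes) and 6 fell (21.4% against 17.4%). Gja5, the connexin of atrium and conduction system, fell 6.34-fold (-2.66 ± 0.24 (SE), limma adjusted p = 8.84e-04). Itga7 and Sgca, an integrin subunit and a sarcoglycan that tie muscle to laminin, rose 4.62-fold and 4.08-fold, with limma adjusted p-values of 0.00140 and 0.00491.

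Atrial genes bear on several of these results. The summed level of 11 atrial markers was 2488, 1418 and 2177 FPKM at P1 and 256, 164 and 1463 FPKM at P21. P21 libraries 1 and 2 thus stood below all others, whereas library 3 lay within the P1 range. The list had 2 falls and 0 rises, with a median -2.20 relative to all genes that became 0.04 with library 3 alone. The part of atrial tissue in the changes of Gja5, Hcn4 and Myh6 was not tested.

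Transcription factors of heart development fell. Of 21 cardiac transcription factors, 11 fell and 1 rose, with a median -0.97 relative to all genes. With sex as a covariate 3 fell and 0 rose. Hey2, a Notch effector of the ventricle, was measured at 12.3, 10.6 and 9.34 FPKM at P1 and 1.46, 1.27 and 1.47 FPKM at P21, and each age was tight (-2.56 ± 0.19 (SE), limma adjusted p = 5.33e-04). Tbx20, a T-box factor of the chamber muscle, fell from 28.9, 27.4 and 22.3 FPKM to 1.47, 1.57 and 5.14 FPKM (-3.22 ± 0.41 (SE), limma adjusted p = 0.00236). Tbx5, a T-box factor whose human mutations cause Holt-Oram syndrome, fell 3.59-fold, with P21 library 3 highest (-1.84 ± 0.39 (SE), limma adjusted p = 0.0127). Mef2a, a MADS-box factor of muscle, fell 1.83-fold (-0.87 ± 0.18 (SE), limma adjusted p = 0.0128).

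Among hormone receptors and their partners, 5 of 26 genes rose and 5 fell, each 19.2%, against 16.3% and 17.4% of all genes. The list as a whole stayed near the median of all genes. The thyroid hormone receptors changed in opposite directions. Thrb, the beta receptor, was measured at 0.431, 0.360 and 0.627 FPKM at P1 and 3.09, 2.38 and 2.62 FPKM at P21 (1.72 ± 0.23 (SE), limma adjusted p = 0.00281). Thra, the alpha receptor, was measured at 45.2, 47.4 and 46.9 FPKM at P1 and 15.5, 10.05 and 19.5 FPKM at P21, in a row that overlaps Nr1d1 on the other strand (-1.65 ± 0.27 (SE), limma adjusted p = 0.00562). Thra remained the higher of the pair in every library in FPKM. Rxrg, a retinoid X receptor that pairs with such receptors, rose 11.8-fold from 1.34, 1.77 and 2.94 FPKM (3.57 ± 0.37 (SE), limma adjusted p = 0.00133). Perm1, a muscle regulator of mitochondrial genes, rose 2.84-fold (1.504 ± 0.23 (SE), limma adjusted p = 0.00459). Klf15, a glucocorticoid-responsive regulator of fuel use, rose 2.97-fold, with P21 library 1 highest (1.57 ± 0.35 (SE), limma adjusted p = 0.0156).

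Genes that respond to glucocorticoids had 5 rises and 1 fall among 14. The fall was that of Angptl4, described with the fatty acid genes, and at -2.94 it was the largest change in the list. The list had 0 rises and 2 falls after rescaling to TPM, and 0 of either with sex as a covariate. Tsc22d3, the glucocorticoid-induced leucine zipper, was measured at 20.2, 20.2 and 23.5 FPKM at P1 and 89.1, 43.6 and 43.4 FPKM at P21 (1.36 ± 0.32 (SE), limma adjusted p = 0.0182). Sgk1, a kinase named for serum and glucocorticoid, rose 2.61-fold (1.38 ± 0.35 (SE), limma adjusted p = 0.0221), and Errfi1, a feedback inhibitor of the EGF receptor, rose 2.43-fold (1.28 ± 0.25 (SE), limma adjusted p = 0.0101). P21 library 1 was the highest for all of these. Of 17 clock genes, 2 rose (11.8% against 16.3% of all genes) and 1 fell (5.88% against 17.4%). Dbp, a clock-driven transcription factor, changed by 0.81 and Tef, its relative, by 0.94, with limma adjusted p-values of 0.0297 and 0.0384, and these turned to -0.29 and -0.18 after rescaling to TPM. The hour of collection is not given in the labels.

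Growth factor signalling held 10 falls and 4 rises among 26 genes. Erbb2 and Erbb4, the receptors through which neuregulin drives division of neonatal muscle cells, were lower at P21. Erbb2 was measured at 13.2, 12.98 and 9.33 FPKM at P1 and 2.18, 2.40 and 4.07 FPKM at P21 (-1.89 ± 0.27 (SE), limma adjusted p = 0.00334). Erbb4 fell 2.57-fold (-1.36 ± 0.23 (SE), limma adjusted p = 0.00598). Bmp7, a bone morphogenetic protein, fell from 14.5, 14.4 and 8.73 FPKM to 0.353, 0.426 and 0.261 FPKM (-3.92 ± 0.26 (SE), limma adjusted p = 3.98e-04). Igfbp5, which binds insulin-like growth factors, fell 4.36-fold (-2.13 ± 0.39 (SE), limma adjusted p = 0.00787). Ptn, the growth factor pleiotrophin, was measured at 37.6, 39.8 and 35.1 FPKM at P1 and 0.188, 1.49 and 1.55 FPKM at P21 (-4.75 ± 0.42 (SE), limma adjusted p = 8.75e-04).

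Among ribosomal proteins the muscle paralog Rpl3l stood apart. Rpl3l, a paralog of Rpl3 made in heart and skeletal muscle, was measured at 3.58, 3.98 and 8.67 FPKM at P1 and 266, 453 and 268 FPKM at P21. On the log2(FPKM + 0.5) scale it rose 57.8-fold, and P21 libraries 1 and 3 agreed closely (5.85 ± 0.38 (SE), limma adjusted p = 3.98e-04). Rpl3, the common form, was measured at 104, 109 and 139 FPKM at P1 and 96.3, 112 and 48.1 FPKM at P21, with overlapping ages (-0.53 ± 0.38 (SE), limma adjusted p = 0.299). Rpl3l exceeded Rpl3 in FPKM in every P21 library and lay far below it in every P1 library. The list of 45 cytoplasmic ribosomal proteins, which are mostly short genes, had a median 1.49 above that of all genes but 2 rises, Rpl3l among them. The list had 23 rises in the fit over all 12 libraries and 1 with P21 library 3 alone, where its median became 0.14. Of 17 splicing regulators, 5 fell and 0 rose, and 0 fell with sex as a covariate. With the length trend removed 5 fell and 2 rose. The median relative to all genes was -0.44 as reported, -0.23 with the length trend removed and -0.34 with P21 library 3 alone. Hnrnpa1, an abundant splicing repressor, fell 2.65-fold (-1.41 ± 0.25 (SE), limma adjusted p = 0.00693). Celf1, which sustains fetal splicing in the mouse heart, and Ptbp1, a splicing repressor, fell 2.52-fold and 2.36-fold, with limma adjusted p-values of 0.0140 and 0.0191.

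**Figure D4:**
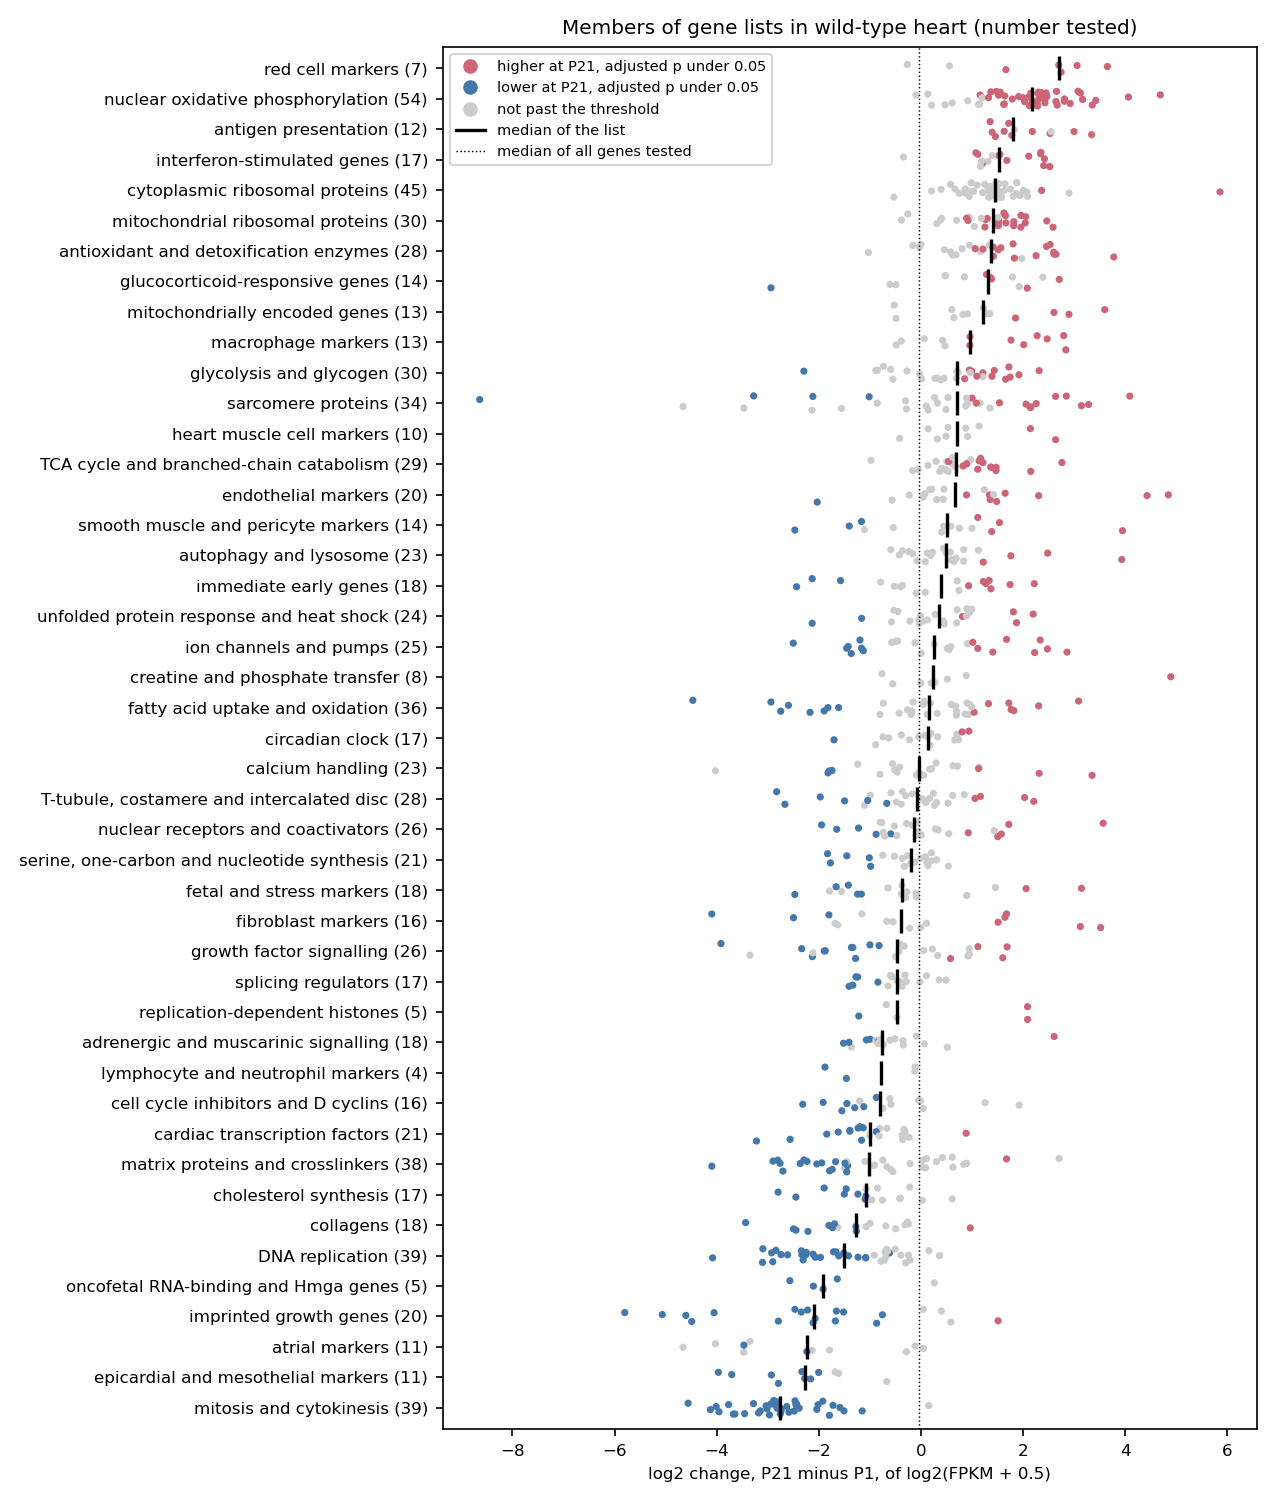
Log2 change from P1 to P21 (horizontal axis) of every tested member of 45 gene lists (rows, with the number tested), in order of their medians; colours mark members past an adjusted p of 0.05 and bars the medians on the deposited scale. The 39 mitosis genes lie lowest at a median of -2.75 and the 54 nuclear genes of oxidative phosphorylation near the top at 2.17, while the median of all genes lies at -0.03 on this scale and at -1.11 after rescaling to TPM.

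Endothelial genes included some of the largest rises. Of 20 endothelial markers, 8 rose and 1 fell, against 3 and 6 after rescaling to TPM. The list median after rescaling was 0.68 above that of all genes. Ly6c1, a surface antigen of mature vessels, was measured at 11.2, 12.3 and 18.9 FPKM at P1 and 910.0, 404 and 185 FPKM at P21. Ly6a, the stem cell antigen Sca-1 that mouse endothelium also carries, was measured at 4.12, 4.81 and 7.61 FPKM at P1 and 594, 295 and 156 FPKM at P21. P21 library 1 was the highest and library 3 the lowest for both, and the rises were 28.7-fold and 51.6-fold, with limma adjusted p-values of 0.00184 and 8.04e-04. Both belong to a family of close copies on chromosome 15, so reads may be shared between them. Rgcc, a regulator of the cell cycle that heart capillaries express, rose from 4.06, 6.31 and 12.9 FPKM to 439, 139.9 and 66.7 FPKM in the same order of libraries (4.43 ± 0.70 (SE), limma adjusted p = 0.00495). Egfl7, a secreted vessel factor, rose 3.13-fold (1.65 ± 0.36 (SE), limma adjusted p = 0.0146). Among 14 smooth muscle and pericyte markers 4 rose and 3 fell. Vtn, which encodes vitronectin, was measured at 1.30, 1.51 and 2.20 FPKM at P1 and 33.6, 39.9 and 25.5 FPKM at P21 (3.95 ± 0.25 (SE), limma adjusted p = 3.73e-04). Rgs5, a pericyte regulator of G-protein signalling, rose 2.61-fold (1.38 ± 0.29 (SE), limma adjusted p = 0.0128), and Cnn1, a smooth muscle calponin, fell 5.54-fold (-2.47 ± 0.34 (SE), limma adjusted p = 0.00319).

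Matrix genes fell while a subset of fibroblast genes rose. Of 18 collagens, 9 fell and 1 rose, and of 38 other matrix proteins and crosslinkers 16 fell and 1 rose. There were 12 and 18 falls in the fit over all 12 libraries, and 5 and 12 with P21 library 3 alone. Postn, the matricellular protein periostin, was measured at 121, 114 and 127 FPKM at P1 and 3.11, 8.18 and 10.9 FPKM at P21, a 17.1-fold fall (-4.09 ± 0.41 (SE), limma adjusted p = 0.00121). Col1a2, a chain of fibrillar collagen I, was measured at 85.3, 66.7 and 39.9 FPKM at P1 and 10.6, 18.7 and 25.1 FPKM at P21, with P1 library 3 and P21 library 3 closest to each other (-1.80 ± 0.40 (SE), limma adjusted p = 0.0147). Col18a1, a collagen of basement membranes, fell 10.8-fold (-3.43 ± 0.35 (SE), limma adjusted p = 0.00125). Mmp14, a membrane-bound collagenase, and Tnc, tenascin C, fell 5.15-fold and 7.45-fold, with limma adjusted p-values of 0.00162 and 0.00297. Of 16 fibroblast markers 5 rose and 3 fell, against 2 and 11 after rescaling to TPM. The list median was -0.35 relative to that of all genes on the deposited scale and -0.36 after rescaling. Pi16, a marker of resting adventitial fibroblasts, was measured at 1.44, 1.57 and 2.20 FPKM at P1 and 22.6, 26.3 and 25.7 FPKM at P21, with both ages tight (3.52 ± 0.20 (SE), limma adjusted p = 2.65e-04). Gsn, the actin-severing protein gelsolin, rose 8.70-fold (3.12 ± 0.36 (SE), limma adjusted p = 0.00169).

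Markers of the outer lining of the heart fell. Of 11 epicardial and mesothelial markers tested, 8 fell and 0 rose. The summed level of the list was 54.8 to 71.9 FPKM at P1 and 3.74 to 10.6 FPKM at P21. Upk3b and Upk1b, uroplakins of the mesothelium, were low at P21, where Upk3b stood at 0, 0 and 0.467 FPKM after 13.2, 7.29 and 8.17 FPKM (-3.97 ± 0.35 (SE), limma adjusted p = 8.75e-04). Upk1b fell 7.61-fold (-2.93 ± 0.23 (SE), limma adjusted p = 5.71e-04). Aldh1a2, the retinoic acid-producing enzyme of the epicardium, was measured at 15.2, 16.5 and 16.4 FPKM at P1 and 1.08, 1.74 and 3.34 FPKM at P21 (-2.79 ± 0.32 (SE), limma adjusted p = 0.00175).

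Macrophage genes were higher at P21. Of 13 macrophage markers, 8 rose and 0 fell, against 5 and 2 after rescaling to TPM and 0 and 0 with sex as a covariate. C1qa, a complement chain made by macrophages, was measured at 10.02, 8.64 and 18.9 FPKM at P1 and 61.9, 176 and 56.03 FPKM at P21 (2.80 ± 0.49 (SE), limma adjusted p = 0.00731). Lyz2, the lysozyme of myeloid cells, was measured at 11.5, 12.2 and 22.6 FPKM at P1 and 66.1, 195 and 97.2 FPKM at P21 (2.84 ± 0.45 (SE), limma adjusted p = 0.00499). P21 library 2 was the highest for both. Cd163, a scavenger receptor of resident macrophages, rose from 0.277, 0.191 and 0.174 FPKM to 2.41, 1.63 and 1.78 FPKM (1.76 ± 0.24 (SE), limma adjusted p = 0.00278). Of 18 lymphocyte and neutrophil markers, 4 passed the minimum, of which 2 fell and 0 rose, and the defining markers of T and B cells did not. Red cell RNA moved the same way: the summed level of its markers was 1698 to 3304 FPKM at P1 and 11668, 43010.0 and 10125 FPKM at P21, with library 2 apart. Hbb-bs, an adult beta-globin with a near-identical copy, was measured at 994, 536 and 897 FPKM at P1 and 4399.7, 16178 and 3873 FPKM at P21 (3.06 ± 0.67 (SE), limma adjusted p = 0.0146), and Alas2, the heme enzyme of red cells, rose 3.17-fold (1.66 ± 0.40 (SE), limma adjusted p = 0.0198). Several red cell genes are short, and the part of blood in the immune results was not tested.

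Antigen presentation and interferon-stimulated genes held many rises and 0 falls. Of 12 antigen presentation genes 10 rose, against 4 after rescaling to TPM and 3 with sex as a covariate. The fit over all 12 libraries had 12 rises, and that with P21 library 3 alone had 11. Psmb8 and Psmb9, catalytic subunits of the immunoproteasome, were below 1 FPKM in every P1 library. Psmb8 was measured at 0.543, 0.257 and 0.777 FPKM at P1 and 9.85, 12.3 and 7.42 FPKM at P21 (3.34 ± 0.29 (SE), limma adjusted p = 8.00e-04). Psmb9, in a row that overlaps Tap1 on the other strand, rose 7.98-fold (2.996 ± 0.25 (SE), limma adjusted p = 6.64e-04). H2-K1, a class I heavy chain, was measured at 9.69, 11.1 and 10.1 FPKM at P1 and 50.7, 40.8 and 113 FPKM at P21, with P21 library 3 highest (2.53 ± 0.37 (SE), limma adjusted p = 0.00401). H2-D1, another class I heavy chain of a family with close copies, rose 4.53-fold (2.18 ± 0.27 (SE), limma adjusted p = 0.00224). Of 17 interferon-stimulated genes 12 rose, against 6 after rescaling to TPM and 5 with sex as a covariate. The fit over all 12 libraries had 14 rises, and that with P21 library 3 alone had 16. Irf1, a transcription factor induced by interferon, was measured at 1.59, 1.81 and 1.69 FPKM at P1 and 14.4, 8.82 and 13.9 FPKM at P21 (2.52 ± 0.23 (SE), limma adjusted p = 9.27e-04). Rsad2, the antiviral protein viperin, was measured at 0.561, 0.441 and 0.606 FPKM at P1 and 5.39, 3.63 and 5.49 FPKM at P21 (2.35 ± 0.24 (SE), limma adjusted p = 0.00124). Xaf1, an interferon-induced partner of the apoptosis inhibitor XIAP, rose 2.87-fold (1.52 ± 0.19 (SE), limma adjusted p = 0.00227). Isg15, a ubiquitin-like modifier added after its values were seen, was measured at 1.23, 0.495 and 3.34 FPKM at P1 and 2.20, 4.38 and 7.14 FPKM at P21, with overlapping ages (1.31 ± 0.56 (SE), limma adjusted p = 0.106).

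Promoter stretches of Rsad2 and Isg15 are shown because the interferon-stimulated response element (ISRE), searched on both strands, recurs in their list. They come from RefSeq on GRCm38.p6, run 5′ to 3′ on the gene's strand and have the matches in capitals. Rsad2 is at chr12:26456533-26456602 and Isg15 at chr4:156200845-156200926, both on the minus strand, and both were chosen after their matches were seen.
Rsad2: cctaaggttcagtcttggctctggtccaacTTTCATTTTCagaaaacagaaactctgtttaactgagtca
Isg15: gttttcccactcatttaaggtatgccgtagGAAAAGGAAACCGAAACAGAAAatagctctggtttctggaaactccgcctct
Rsad2 holds a match 120 to 111 bases before the start, read on the other strand. Isg15 holds 3 matches that overlap one after the other between 78 and 57 bases before the start. The element was in 8 of 14 interferon-stimulated genes with a promoter in the table (57.1%) and in 2.87% of 8993 tested genes. For comparison, the motifs of NRF1 and of the estrogen-related receptors (TCAAGGTCA), searched on both strands, were in 0 of 41 oxidative phosphorylation genes and in 1.86% and 0.334% of tested genes, which says only that these letters were not in these windows.

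Detoxification genes also rose. Of 28 antioxidant and detoxification enzymes, 15 rose and 0 fell, against 9 and 4 after rescaling to TPM. Gstk1, a glutathione transferase of mitochondria and peroxisomes, was measured at 5.59, 4.26 and 8.94 FPKM at P1 and 103, 138 and 48.2 FPKM at P21 (3.78 ± 0.43 (SE), limma adjusted p = 0.00173). Ephx1, the microsomal epoxide hydrolase, rose 6.25-fold (2.64 ± 0.34 (SE), limma adjusted p = 0.00243). Protein-quality lists did not stand out, with 4 rises and 2 falls among 24 genes of the unfolded protein response and heat shock and 4 rises and 0 falls among 23 of autophagy and lysosome, which are 16.7% and 17.4% rises against 16.3% of all genes. Cryab, the small heat shock protein alpha-B crystallin, rose 4.58-fold, in a row that overlaps Hspb2 on the other strand (2.20 ± 0.39 (SE), limma adjusted p = 0.00745). Trim54, a muscle ubiquitin ligase of the MuRF family, was measured at 5.27, 4.28 and 4.94 FPKM at P1 and 144, 79.6 and 45.5 FPKM at P21 (3.93 ± 0.40 (SE), limma adjusted p = 0.00121). Ces1d, a carboxylesterase, was measured at 1.92, 1.57 and 2.08 FPKM at P1 and 42.8, 51.8 and 41.04 FPKM at P21, and its groups were among the tightest (4.28 ± 0.19 (SE), limma adjusted p = 1.62e-04).

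The remaining leading genes have varied roles. Slc38a3, a glutamine carrier, was measured at 0.553, 0.450 and 0.551 FPKM at P1 and 18.8, 25.6 and 26.7 FPKM at P21 (4.56 ± 0.21 (SE), limma adjusted p = 1.62e-04). Cbr2, a carbonyl reductase, rose from 0.611, 0.0437 and 0.295 FPKM to 18.7, 32.5 and 17.2 FPKM (4.84 ± 0.35 (SE), limma adjusted p = 4.64e-04). Tuba8, an alpha-tubulin of muscle and testis, and Art1, a mono-ADP-ribosyltransferase of muscle, rose 24.4-fold and 21.6-fold, with limma adjusted p-values of 8.75e-04 and 2.64e-04. Among the falls, Cited1, a CBP-binding transcriptional regulator, was measured at 24.4, 19.9 and 18.9 FPKM at P1 and 0.809, 0 and 0.470 FPKM at P21 (-4.64 ± 0.36 (SE), limma adjusted p = 5.71e-04). Lpar3, a receptor for lysophosphatidic acid, fell 22.2-fold (-4.47 ± 0.37 (SE), limma adjusted p = 7.25e-04). Aldh1b1, a mitochondrial aldehyde dehydrogenase, was measured at 140.1, 134 and 106 FPKM at P1 and 2.81, 8.04 and 6.09 FPKM at P21 (-4.47 ± 0.36 (SE), limma adjusted p = 6.64e-04). Bex4, an X-linked gene, fell from 22.1, 20.7 and 18.2 FPKM to 0.308, 0 and 0.537 FPKM (-4.79 ± 0.29 (SE), limma adjusted p = 3.73e-04).

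Csrp3, Rnf5 and Mapk14 are the genes that the title of the series names. Csrp3 encodes muscle LIM protein of the Z disc and was measured at 183, 179 and 238 FPKM at P1 and 1068, 1397 and 572 FPKM at P21. It rose 4.78-fold, with P21 library 3 the lowest at that age (2.26 ± 0.44 (SE), limma adjusted p = 0.0100). Rnf5, a membrane-bound ubiquitin ligase, was measured at 13.9, 7.42 and 12.6 FPKM at P1 and 3.13, 6.46 and 5.66 FPKM at P21, with P1 library 2 near the P21 values. Its fall of -1.09 passed the threshold narrowly (limma adjusted p = 0.0414). Mapk14, the p38 alpha kinase, was measured at 18.01, 16.8 and 15.7 FPKM at P1 and 23.1, 36.8 and 23.1 FPKM at P21, with no overlap between the ages. The change of 0.66 missed the threshold (limma adjusted p = 0.0694) and turned to -0.46 after rescaling to TPM.

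The Csrp3 KO libraries share no library with the wild-type comparison and give the same age contrast in other samples. Csrp3 RNA itself was present in them, at 168, 94.3 and 147 FPKM at P1 and 671, 1112 and 926 FPKM at P21. The label KO therefore does not stand for absence of Csrp3 RNA in these libraries. There 1839 genes (14.8%) were higher and 1969 (15.9%) lower at P21. Of the wild-type rises 1983 of 2015 had the same direction in KO, where 6038 of all 12399 tested genes were higher at P21, and of the wild-type falls 2123 of 2159 did. Calls in both genotypes numbered 1325 rises, which are 65.8% of the wild-type and 72.1% of the KO rises, and 1472 falls, which are 68.2% and 74.8%. All 15 leading rises and all 14 leading falls described kept their direction and passed the threshold in KO. Their median change was 4.56 in wild type and 3.86 in KO for the rises, and -4.62 and -4.10 for the falls.

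**Figure D5:**
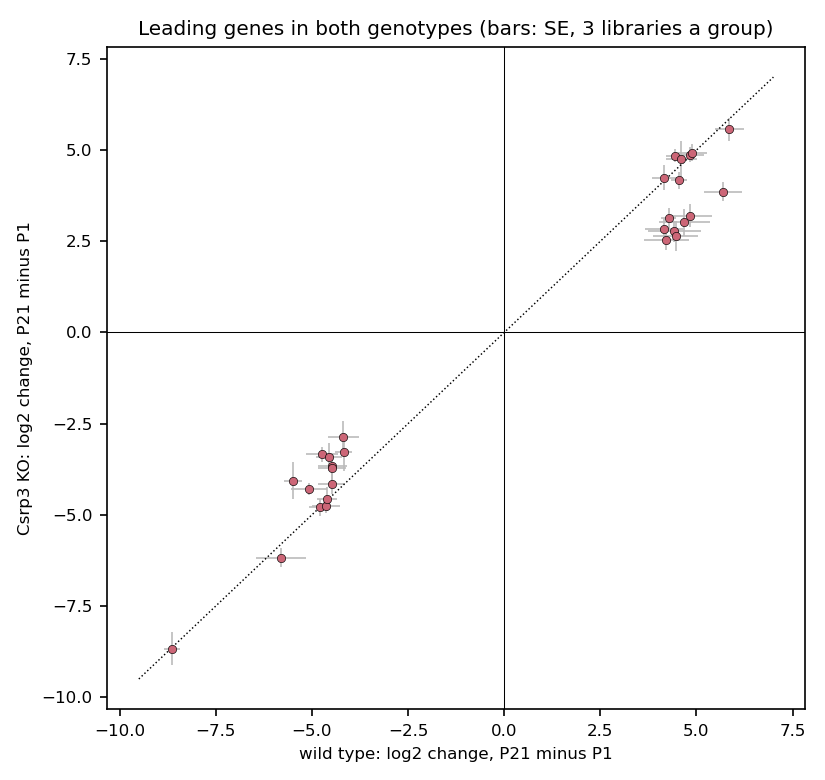
Log2 change from P1 to P21 of the 29 leading genes in wild type (horizontal axis) and in Csrp3 KO (vertical axis), with standard errors from 3 libraries a group and a dotted line of equal change. All 29 points lie in the quadrants of equal sign, and the genes were chosen on the wild-type axis, where the median rise was 4.56 against 3.86 in KO.

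No gene differed in its age change between the genotypes at an adjusted p under 0.05 in the interaction term of limma (0% of 12399), while 876 genes (7.07%) had an unadjusted p under 0.05. Leaving out wild-type P21 library 3 gave 349 genes at an adjusted p under 0.05. Wild-type P21 then rests on libraries 1 and 2, which had the stronger gene length trend, and the cause of these calls was not tested. The list medians in KO stood at 1.16 for nuclear oxidative phosphorylation, where wild type had 2.17, and at 0.0849 for cytoplasmic ribosomal proteins, where wild type had 1.46. For mitosis genes the KO median was -2.53, where wild type had -2.75. With P21 library 3 alone the first 2 wild-type medians were 1.25 and 0.12. These list medians were not compared by a test.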

How the data were processed

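RNA sequencing had been carried out on heart RNA (miRNeasy micro kit, Ovation Ultralow V2 libraries, per the labels' protocols). The authors deposited a single FPKM table of all libraries, and per the submitters' processing notes they used FastQC, TopHat2 2.0.13, Subread, featureCounts and edgeR. The genome build of the table and the use of strand in counting are not given in the sources used here. Library names tied the columns to the samples, and the titles gave groups and replicate numbers.

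FPKM times gene length gave whole reads within 0.05 of a read for 100% of nonzero values, which gave the depth. It also showed that the authors had scaled each library by a factor of 0.605 to 1.17 beyond its read total, and the P21 factors were the lower ones. Genes that reached an FPKM of 1 in 3 or more of the 6 libraries were fitted on log2(FPKM + 0.5) with limma 3.58.1 in R 4.3.3, with 1 mean per group, an expression trend, robust moderation and Benjamini-Hochberg adjustment over all 12399 genes at 0.05. Fold changes are on that scale, which understates changes of low genes. The difference between genotypes was an interaction term over 12 libraries. Figures were drawn with matplotlib 3.10.9.

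The members, the gene lists and the tests were chosen with earlier results of these data known. Genes named are Csrp3, Rnf5, Mapk14, isoform pairs, the 15 largest rises and falls past the threshold (an official symbol, not sex-linked, 300 bases or longer, groups that do not overlap, and a mean of 5 FPKM or more in the group with the higher level) and up to 6 members per list with the smallest adjusted p. Some genes that this rule takes are not reported here. Others are said to be chosen after their values were seen. Promoters are 250 bases before the start, from RefSeq (GRCm38.p6), matched by symbol for 8993 of 12390 distinct symbols tested. Alternatives were other pseudocounts, filters, scalings and models, voom on the recovered reads, sex as a covariate, a replicate block and leaving out libraries. Removal of the gene length trend was added after seeing the data. Standard errors come from the moderated spread between libraries, and floors cover counting error only.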

Additional observations from a re-analysis of the deposited data

How the results depend on the processing

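The counts of 2015 higher and 2159 lower genes came to 1954 to 2028 higher and 2018 to 2217 lower under other pseudocounts, median-of-ratios scaling and plain empirical Bayes. They came to 2794 and 2957 with all 12 libraries in a single fit, to 2711 and 2781 with library weights, to 2176 and 2218 with voom on the recovered reads, and to 1942 and 2067 with the length trend removed, which kept 1677 of the higher and 1794 of the lower calls. Without a filter 1179 were higher, and with a minimum of 5 FPKM 1194 were lower, among fewer genes tested. Rescaling to TPM gave 601 and 7280, rescaling without mitochondrial and the 20 most abundant genes gave 642 and 5518, and sex as a covariate, where age rests on P1 library 1 against the P21 libraries, gave 192 and 338. Leaving out a library gave 660 to 2852 higher and 832 to 2879 lower. The lowest counts came without P1 library 2 (660 and 832), P1 library 1 (693 and 849) and P1 library 3 (1092 and 1329). The causes were not tested, beyond fewer samples in these fits.

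The interaction gave 0 calls in every other alternative run and 349 without wild-type P21 library 3, so leaving out a library gave 0 to 349. Same-numbered libraries did not deviate together (r = -0.0708, -0.187 and -0.342), where pairs of different number ran from -0.211 to 0.287. With 3 libraries a group these correlations cannot exclude a shared litter or batch behind the numbers. A replicate block gave 1444 higher and 1514 lower genes, and 0 interaction calls.

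Rescaling to TPM turned 16 of 48 list medians from above to below 0 and none relative to the median of all genes. Of the 152 genes named, 142 were called. After rescaling to TPM the change was -0.46 for Mapk14, -1.003 for Myh6, -0.63 for Ckm, -0.87 for Ckb, -0.29 for Dbp and -0.18 for Tef, and without mitochondrial and the 20 most abundant genes it was -0.32, -0.87, -0.49, -0.72, -0.15 and -0.040. Myh6 was at -0.059 with library weights, at -0.37 with sex as a covariate, and between -0.23 (without P1 library 3) and 0.46 when a library was left out, with -0.18 without P21 library 3. Ckb was between -0.013 (without P21 library 2) and 0.50 when a library was left out, and Hcn4 was at 0.016 without P21 libraries 1 and 2. Of these genes only Dbp and Tef were called on the deposited scale. With sex as a covariate 69 of the genes named lost their call, and without P1 library 1 or 2 it was 30 each. After rescaling to TPM 19 lost it, Dbp and Tef included, and among them Dcn, Dgat2, Kcnk3, Klf15 and Sgk1. Rnf5 lost its call in 9 of 21 alternatives. At these depths genes near 0 at P21, such as Cks2, give bounds rather than folds.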

Other observations

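Some fuel genes had wild-type changes that the KO libraries did not show, and these were named after their values were seen. Pdk4 changed by -2.74 in wild type and by 0.72 in Csrp3 KO, where its values were 151, 103 and 45.3 FPKM at P1 and 257, 85.01 and 145 FPKM at P21. The interaction term of limma had an unadjusted p of 7.84e-04 and an adjusted p of 0.668. Ucp3 changed by -1.82 and 0.34, with an unadjusted p of 0.00109 and an adjusted p of 0.668 in the same limma fit. Postn fell by 4.09 in wild type and by 2.02 in KO on the log2 scale, with an adjusted p of 0.668 for the difference in limma. None of these differences passed the threshold.

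Among genes listed at 0 in all libraries of an age, chosen after their values were seen, Strit1 encodes a micropeptide that activates the calcium pump of the sarcoplasmic reticulum. It was at 0 in all P1 libraries and at a mean of 18.6 FPKM at P21, which is at least 80.8-fold higher against a floor of 3 reads over the group. Depdc1a and Neil3, known from dividing cells, were at 0 in all P21 libraries and at least 101-fold and 109-fold lower.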
